A study of Mus musculus with 8 samples.

Results

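Intermediate progenitor cells (IPCs) outside the cell cycle were examined in single-cell RNA-sequencing data from the dentate gyrus of Ki67TD-NES mice. A barcode was taken as a member if it held over 500 genes and under 10% mitochondrial UMIs (unique molecular identifiers, 1 per captured RNA molecule), if at least 2 of Eomes, Neurog2, Neurod4, Mfng and Igfbpl1 were detected with Eomes or Neurog2 among them, and if at most 2 of 10 cell-cycle genes (Mcm2 to Mcm7, Pcna, Top2a, Cdk1 and Ccnb1) and at most 1 of 7 genes of other lineages (Mog, Mag, Mobp, Cx3cr1, Cldn5, Pdgfra and Cspg4) were detected. This rule took 1208 of the 24376 barcodes that passed the filters on genes and mitochondrial UMIs, out of 26036 in the series. All mice carried one Ki67-creERT2 allele, a Nestin-GFP transgene and a tdTomato reporter on a mixed C57BL/6J and CD1 background. Ki67-creERT2 expresses a tamoxifen-dependent recombinase in dividing cells, so that cells that divided during treatment, and their descendants, switch on tdTomato, and Nestin-GFP lights up neural stem cells and, for a time, their progeny. Tamoxifen was given to every mouse for 6 days (100 mg/kg), the mice were culled on day 8, and GFP+ cells with and without tdTomato were sorted from pools of male and female mice. The groups were 1 month (1 experiment), 2 months (3 experiments) and 6–8 months (3 experiments, labelled 6 months), and no group went without tamoxifen. The experiment, a pool of mice from 1 day, was the replicate.

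IPCs are the short-lived dividing daughters of radial glia-like neural stem cells in the hippocampus, and they give rise to neuroblasts and then to granule neurons. They are known by the T-box transcription factor Eomes (Tbr2), which follows the proneural factor Neurog2 and precedes Neurod1 and Prox1. An IPC outside the cycle has either left it on the way to a neuroblast or lies between divisions, and RNA at 1 time point does not tell these apart.

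Members numbered 343 at 1 month, 224, 204 and 135 in the 3 experiments at 2 months, and 116, 52 and 134 in those at 6–8 months. They made up 10.4% of the barcodes kept at 1 month (95% exact binomial interval 9.41 to 11.5%), between 3.70 and 7.56% per library at 2 months, and 4.61, 1.54 and 2.59% at 6–8 months. These intervals cover counting error only, and the shares depend on the sort. The first experiment at 2 months was sequenced as separate tdTomato+ and tdTomato– libraries, with 57 and 167 members. Cells without either colour are named beside the double-positive ones in the GEO entry of the former. The median UMIs of a member was 8545 at 1 month, between 2693 and 5045 at 2 months, and between 6940.5 and 9912.5 in the oldest mice. Version 2 of the droplet chemistry was used at 2 months only and Version 3 at the other ages, so that the chemistry cannot be told apart from age in comparisons with 2 months. A cell-barcode sequence present in more than 1 library was seen for 103 of the barcodes kept, and 5 distinct sequences of members were of this kind.

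Markers of other cell types differed between the experiments. Mobp, a myelin gene, was detected in 24.0% of members of the second experiment at 2 months, in 8.89% of the third, in 0% at 1 month and in at most 4.91% of the other experiments. The 8 oligodendrocyte markers summed to 1601 CPM (UMIs per 1000000 of the summed class) in that second experiment and to between 105 and 500.4 CPM in the others, with a mean of 397 ± 549 CPM (SD, n = 7 experiments). Cycling IPCs of the same experiment held 1443 CPM of these markers and early neuroblasts 1781 CPM. Markers of microglia summed to 161 CPM in members of the first experiment at 2 months and to at most 20.6 CPM elsewhere. The 8 granule neuron markers summed to 301 ± 59.2 CPM in members and 185 ± 33.5 CPM in cycling IPCs, and ranged from Rbfox3 at 188 ± 47.4 CPM and Snap25 at 82.7 ± 28.7 CPM to Camk2a at 1.07 ± 0.87 CPM and Calb1 at 0.0896 ± 0.237 CPM. Both of the 2 tested against cycling IPCs were higher in members, and the 8 astrocyte markers summed to 41.9 ± 26.6 CPM, with 66.3, 70.7 and 68.0 CPM in the experiments at 2 months and at most 42.0 CPM in the others. In the second experiment at 6–8 months interneuron markers, with Dlx1 the most abundant, summed to 107 CPM and oligodendrocyte precursor markers to 187 CPM, against at most 55.9 and 134 CPM elsewhere. Endothelial markers summed to 72.3 CPM in the third experiment at 6–8 months and to 0 CPM in the others of that age.

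The members were chosen by detection of the genes of the rule, whose values are given as a description. Igfbpl1, which encodes a secreted insulin-like growth factor binding protein-like factor, was detected in 1198 members (99.2%) and averaged 3567 ± 362 CPM, and Eomes was detected in 1110 (91.9%) at 358 ± 99.5 CPM. Mfng, a glycosyltransferase that modifies Notch receptors, was detected in 40.6% of members. Neurog2 was detected in 26.0% and Neurod4, a later proneural factor, in 25.7%. Oligodendrocytes, which should lack these genes, had shares of 6.23% for Igfbpl1, 1.46% for Eomes and under 1% for the others, at a median depth of 4632.5 UMIs against 5869 in members. The rule fixed that members held such markers. Eomes and Igfbpl1 alone defined 445 members, 232 held these and Mfng, and 58 held all 5 genes. Eomes detection ran from 84.4 to 96.2% over the experiments and was lowest in the second and the third experiments at 2 months, which were also the shallowest.

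**Figure D1:**
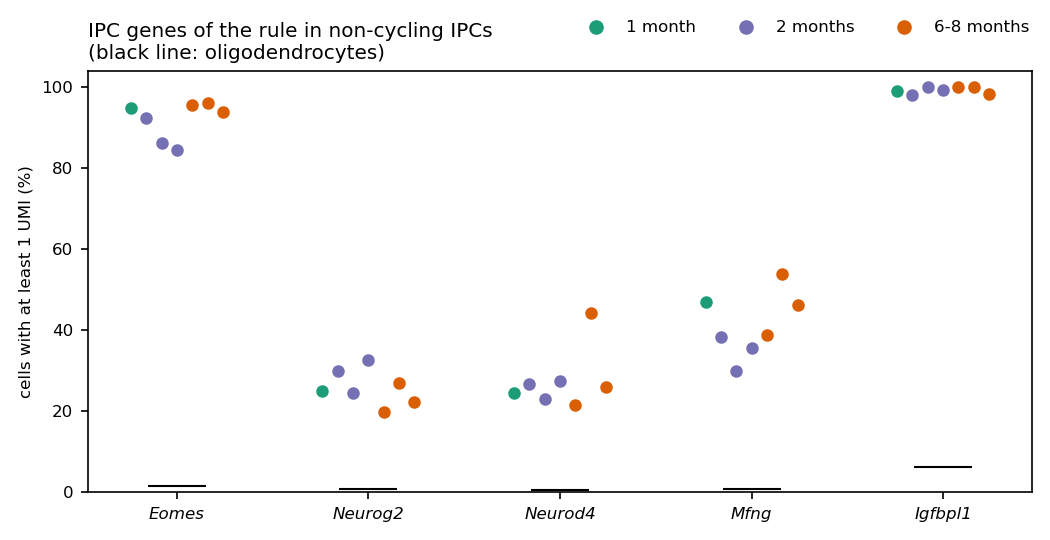
Share of non-cycling IPCs with at least 1 UMI of each IPC gene of the rule (vertical axis, percent of cells), 1 point per experiment coloured by age, with the share in oligodendrocytes as a black line. Igfbpl1 and Eomes sit between 84.4 and 100% in every experiment, the other genes between 19.8 and 53.8%, and the oligodendrocyte lines at 6.23% or below.

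Eomes lies at chr9:118478212-118486132 on the plus strand of GRCm38 (GENCODE M21) and Igfbpl1 at chr4:45809468-45826923 on the minus strand. Neurog2 lies at chr3:127633135-127635631 and Neurod4 at chr10:130268152-130280240. The limits of the rule cut through a continuous range. Of the cells that met the marker rule, 362 held exactly 2 of the cell-cycle genes and were taken in, with a median of 7919.5 UMIs, and 217 held 3 and were left out, with 7678. Likewise 525 members held exactly 2 of the IPC genes, and 167 cells with Eomes or Neurog2 alone were left out. Members without any cell-cycle gene (361) were shallower, with a median of 3758 UMIs. Mcm7 was the cell-cycle gene most often detected in members (43.2%), followed by Pcna (21.2%) and Mcm6 (17.0%), whereas Top2a, Cdk1 and Ccnb1 were detected in 1.49, 0.745 and 1.9% of members.

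Genes outside the rule were first counted after every cell was thinned to 2000 UMIs, which 1150 members reached. Sox11, a transcription factor of newborn neurons, was detected in 97.4% of thinned members (3.87% of oligodendrocytes), Neurod1 in 72.4% (1.86%), Dcx in 43.3% (1.35%) and Prox1, the fate gene of granule neurons, in 39.7% (19.1%). Without thinning these shares were 99.3, 84.9, 74.5 and 67.5%. Tbr1, the T-box factor that follows Eomes, was detected in 17.7% of thinned members, and Insm1 in 26.3%. Genes of the stem cell ranged widely. Sox2 was detected in 27.9% against 15.8% in oligodendrocytes and Sox9 in 10.6% against 1.3%, and Hopx was detected in 7.22% against 4.82%, Hes5 in 7.48% against 2.29%, and Gfap in 2.26% against 2.8%, below the background. Mki67, a proliferation gene that the rule did not use, was detected in 1.13% of thinned members and in 3.64% without thinning. Among all thinned cells that met the marker rule, cycling ones included, 77.2 to 96.6% per experiment also lacked Mki67. Its absence at this depth therefore tells little about the cycle.

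Detection of genes of both neighbouring stages was counted jointly. A radial glia gene (Hopx, Sox2 or Sox9) without Neurod1 or Dcx was detected in 11.2% of thinned members, Neurod1 or Dcx without a radial glia gene in 54.4%, both in 26.5% and neither in 7.83%. Sox2 alone was detected in 15.8% of thinned oligodendrocytes against 27.9% of thinned members, and these shares do not by themselves show kinds of members. The first share was highest in the third experiment at 2 months (21.4%) and lowest in the first at 6–8 months (6.09%). Within each experiment, cells with a larger share of UMIs in 31 radial glia genes tended to have a smaller share in 31 neurite genes. Spearman's rho across cells ran from -0.16 to -0.58 over the 7 experiments, between 52 and 341 cells each, and all cells of an experiment share 1 library or 2. The middle 80% of members spanned 2.25 to 5.4% of UMIs in neurite genes at 1 month.

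Members were next set beside 3 classes of the same experiments. Cycling IPCs (1141 cells) met the same marker rule but held more than 2 of the cell-cycle genes. Early neuroblasts (830 cells) held Neurod1 and Dcx without Eomes or Neurog2, with the same limits on cell-cycle and other-lineage genes. Hopx+ radial-glia-like cells (1263 cells) held Hopx and at least 2 of Slc1a3, Sox9, Sox2, Nes and Gfap without Eomes, Neurog2, Neurod4 or Dcx and with at most 1 of 4 astrocyte genes, and may still include astrocytes. Astrocyte markers summed to 941 ± 252 CPM in this class and 41.9 ± 26.6 CPM in members, with Gja1 the most abundant in both, and the 2 tested were lower in members. Mural cell markers summed to 327 ± 179.7 CPM in this class and 19.2 ± 16.0 CPM in members, with Vtn the most abundant, and ependymal markers to 100.3 ± 44.4 and 2.38 ± 1.84 CPM, with Rarres2 the most abundant. The 1 gene tested of each of these 2 lists was lower in members, and the part of such cells in that comparison was not tested. Counts were summed per experiment and class. Genes outside the rules were tested by quasi-likelihood in edgeR, blocked on experiment, and p-values were adjusted by Benjamini-Hochberg. Classes were drawn from expression in the same cells, so a called gene is no independent evidence that the classes are distinct. The block takes out differences in level between experiments. A call thus weighs the class difference within experiments against how much that difference varied. Levels of a called gene can still overlap across experiments. The 3 comparisons share the counts of the members.

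Against cycling IPCs, non-cycling IPCs held more RNA of most tested neurite genes and of Neurod1 and Prox1. They held less of Insm1 and of most tested radial glia genes, some of which passed the detection limit through cycling IPCs alone. Of 5957 genes tested, 1628 were higher in members (27.3%) and 1646 lower (27.6%), and members of a list are read against these shares. The largest rise was that of Calb2, which encodes calretinin, a calcium-binding protein of immature granule neurons. Calb2 stood at 342 CPM in the lowest, 716 in the median and 946 in the highest experiment in members and at 15.5, 43.8 and 337 CPM in cycling IPCs. The ranges did not overlap, and the highest value of cycling IPCs came from the 1-month experiment. The log2 fold change was 2.77 ± 0.33 (SE; edgeR adjusted p = 2.4e-06), higher in 7 of 7 experiments. Stmn2, a microtubule regulator of growing axons, stood at 483 to 889 CPM in members with a median of 646, and at 39.9 to 284 CPM in cycling IPCs with a median of 61.9. Again no experiment overlapped, and the log2 fold change was 2.69 ± 0.23 (edgeR adjusted p = 7.72e-08). Cd24a, a surface antigen of young neurons, rose from 111 ± 54.0 to 620.1 ± 202 CPM (log2 fold change 2.40), Stmn4 from 64.0 ± 46.4 to 312 ± 68.9 CPM (2.28), and the neuronal transcription factor Myt1l from 40.1 ± 32.4 to 195 ± 91.0 CPM (2.09). Hecw1 (2.21), Tspan4 (2.18), March1 (2.11), Neurod2 (2.01) and Cd200 (1.97) completed the 10 genes that rose most, each in 7 of 7 experiments.

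Of the 31 neurite genes, 30 were tested, 28 were higher in members and 1 was lower, with a median log2 fold change of 0.99 against 0.01 over all genes tested. Tuba1a, the main neuronal alpha-tubulin, rose from 5034 ± 746 to 9673 ± 1045 CPM and Tubb2b from 1375 ± 595 to 4189 ± 1230 CPM, while Stmn1, which dividing cells also use, stood at 5622 ± 845 and 5838 ± 640 CPM and did not pass (edgeR adjusted p = 0.248). Elavl4, an RNA-binding protein of neurons, was the member of this list that was lower (log2 fold change -0.20). Summed over the list, members held 35543 ± 3073 CPM and cycling IPCs 20139 ± 2336 CPM.

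Among 31 neurogenic transcription factors, 28 were tested, 19 were higher and 5 lower, with a median of 0.62. Neurod1 rose from a median of 234 CPM (162 to 506) to 897 CPM (699 to 1064), without overlap between the classes (log2 fold change 1.69 ± 0.12, edgeR adjusted p = 8.21e-09). Bhlhe22, Neurod6 and Neurod2, which are factors of postmitotic excitatory neurons, rose by 1.94, 1.93 and 2.01 on the log2 scale, Prox1 by 1.07 and Tbr1 by 1.20. Neurod2 was detected in 28.9% of members and 9.2% of cycling IPCs, so its direction is a description. Among those that fell were Insm1, a zinc-finger factor of progenitors (195 ± 121 against 503 ± 268 CPM, log2 fold change -1.37 ± 0.09, edgeR adjusted p = 3.45e-09), Hes6, an inhibitor of Hes1 (284 ± 77.5 against 497 ± 64.6 CPM), Tfap2c and Pax6, each in 7 of 7 experiments. Hes6 did not overlap between the classes and Insm1 did.

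Notch signalling keeps stem cells undifferentiated, and its ligands are made by committed daughters. Of the 25 Notch genes 10 were tested, 4 were lower, 2 higher and 4 did not pass. Only 3 of the list (Rbpj, Dll3 and Numbl) were detected in at least 20% of members. The others passed this limit through cycling IPCs alone. The ligand Dll1 fell by 1.75 on the log2 scale, the receptor Notch1 by 1.26 and the target Nrarp by 1.16, each in 7 of 7 experiments. Dll1, detected in 6.46% of members, Notch1, Nrarp and Hes5 were the 4 lower genes. All of them were tested through cycling IPCs alone, so their direction is a description. The target Hes5 averaged 198 ± 170 CPM in members and 512 ± 505 CPM in cycling IPCs, was lower in 5 of 7 experiments (edgeR adjusted p = 0.000629) and overlapped widely between the classes. The ligand Dll3 stood at 76.8 ± 16.4 and 67.3 ± 15.1 CPM and did not pass (edgeR adjusted p = 0.373). Of 31 radial glia genes 20 were tested, 16 were lower and 1 was higher (Gpm6b), with a median of -0.72. Against neuroblasts 15 of this list were tested. Some of the 20 thus passed the detection limit through cycling IPCs alone, and the count and the median include them. Apoe, a lipid carrier of glia, fell from 801 ± 208 to 419 ± 188 CPM, lower in 7 of 7 experiments, and Id1, an inhibitor of proneural factors, from 65.2 ± 43.7 to 10.6 ± 4.8 CPM.

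Genes around the exit from the cycle moved both ways. Of 22, 16 were tested, 5 were higher and 10 lower. Ccnd2, a cyclin of G1 progenitors, stood at 270 to 861 CPM in members with a median of 702, and at 843 to 2572 CPM in cycling IPCs with a median of 1895. The ranges met at the 1-month cycling IPCs, and within each experiment members were lower (log2 fold change -1.62 ± 0.08, edgeR adjusted p = 5.39e-11). The classes were split on cell-cycle genes, so the direction of Ccnd2 and of other genes of this list tied to the cycle is a description. The inhibitor Cdkn1b (p27) rose by 0.30 on the log2 scale and the antiproliferative gene Btg1 by 0.51, whereas the inhibitors Cdkn1a, Cdkn2d and Cdkn2c fell by 1.92, 0.95 and 0.46. Cdk5r1, the activator of the neuronal kinase Cdk5, rose by 1.26. The antiproliferative gene Btg2 did not pass (log2 fold change 0.08, edgeR adjusted p = 0.323). Among 15 tested genes of guidance and migration 6 were higher and 3 lower, with the secreted cue Sema3c (195 ± 23.0 against 45.6 ± 25.0 CPM) and its receptor Nrp1 (103 ± 17.7 against 44.9 ± 8.38 CPM) both higher in members.

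The fall of cell-cycle genes beyond the rule is a description, since the rule selected for it. A list of 92 further cell-cycle genes summed to 16249.7 ± 1774 CPM in members and to 42237 ± 6301 CPM in cycling IPCs, and Stmn1, which the neurite list also holds, gave 5838 CPM of the former. Esco2, which acts in cohesion of sister chromatids, averaged 0.818 ± 1.72 CPM in members and 116 ± 30.7 CPM in cycling IPCs, and the kinetochore gene Ska1 0.636 ± 0.906 against 56.6 ± 14.3 CPM. The other genes with the largest falls (Melk, Sgo1, Ndc80, Neil3, Kif15, Hmmr, Rad51ap1 and Tcf19) also act in DNA replication, repair or mitosis. Oligodendrocyte markers summed to 397 ± 549 CPM in members and 349 ± 503 CPM in cycling IPCs, and 2 of 3 tested were higher in members. Without the second experiment at 2 months, where these markers were highest, 3279 genes were called against 3274 with it. Cycling IPCs were also deeper, with a median of 12336 UMIs a cell against 8545 at 1 month and of 3744 against 2693 in the second experiment at 2 months. With the rules applied again to cells thinned to 2000 UMIs, 1718 genes could be tested and 751 were called.

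**Figure D2:**
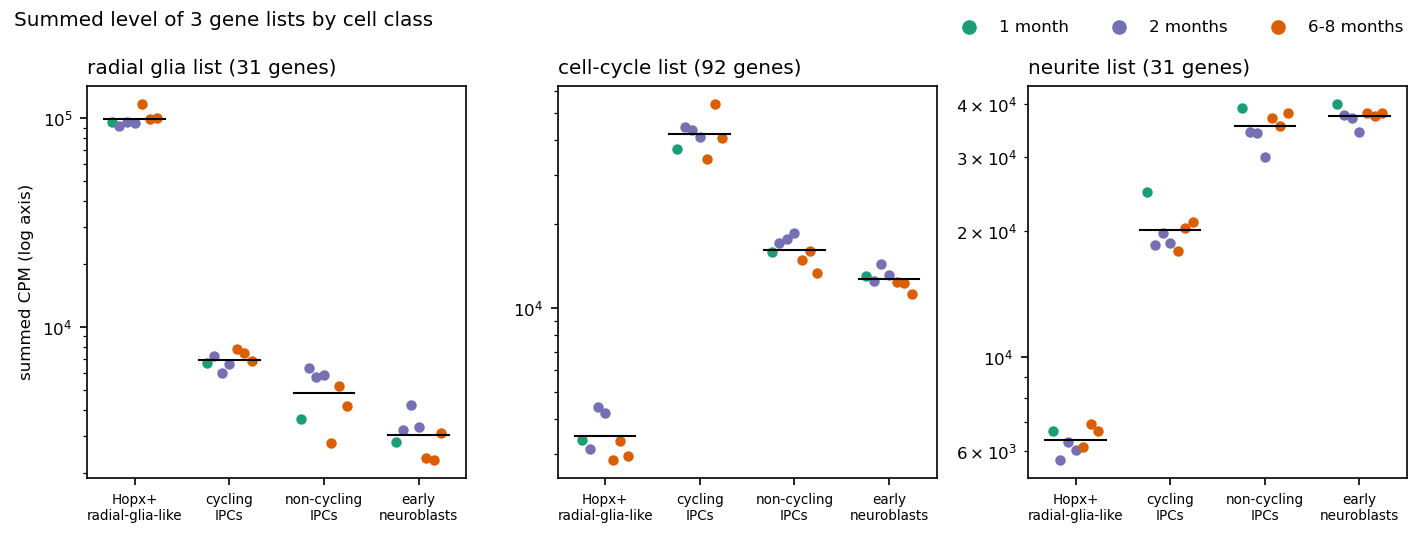
Summed level of 3 gene lists (vertical axes, CPM on a log scale) in 4 cell classes, 1 point per experiment coloured by age, with the mean as a line. Non-cycling IPCs lie near early neuroblasts in the neurite list (35543 and 37584 CPM) and between cycling IPCs and early neuroblasts in the other lists. The class rules used some genes of the first list, so the height of the Hopx+ class there is partly set by its rule.

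Promoter sequences are shown for genes that were higher in members than in cycling IPCs in 7 of 7 experiments, to show which E-box letters stand before their starts, since proneural factors of the Neurog and Neurod families bind the E-box CANNTG. RefSeq promoters (GRCm38.p6) were found for 7 of 12 genes looked up, and Mfng, Igfbpl1, Calb2, Stmn2 and Cd24a had no entry. The 250 bases before each start are given 5′ to 3′ on the strand of the gene, with every CANNTG, which reads the same on both strands, in capitals.
Tac2: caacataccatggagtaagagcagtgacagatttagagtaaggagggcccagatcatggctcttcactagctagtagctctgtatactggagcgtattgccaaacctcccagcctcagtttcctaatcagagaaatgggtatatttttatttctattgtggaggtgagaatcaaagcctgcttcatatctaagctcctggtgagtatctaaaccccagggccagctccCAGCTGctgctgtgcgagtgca
Neurod1: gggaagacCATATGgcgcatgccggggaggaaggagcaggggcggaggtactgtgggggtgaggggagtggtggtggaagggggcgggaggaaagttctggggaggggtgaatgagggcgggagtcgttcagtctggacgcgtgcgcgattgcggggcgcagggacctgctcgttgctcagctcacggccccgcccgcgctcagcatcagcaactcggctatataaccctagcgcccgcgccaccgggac
Tbr1: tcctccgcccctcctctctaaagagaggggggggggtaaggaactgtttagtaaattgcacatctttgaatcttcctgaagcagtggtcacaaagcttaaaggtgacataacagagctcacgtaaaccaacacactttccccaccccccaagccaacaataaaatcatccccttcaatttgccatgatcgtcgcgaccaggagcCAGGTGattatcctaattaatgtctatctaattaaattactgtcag
Sema3c: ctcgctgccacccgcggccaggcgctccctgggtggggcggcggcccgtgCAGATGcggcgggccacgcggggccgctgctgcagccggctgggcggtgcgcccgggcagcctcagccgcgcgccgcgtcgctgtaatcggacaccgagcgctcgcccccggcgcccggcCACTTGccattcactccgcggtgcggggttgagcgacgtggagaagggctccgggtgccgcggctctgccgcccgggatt
They lie at chr10:127724228-127724477 (plus strand), chr2:79456637-79456886 (minus), chr2:61804203-61804452 (plus) and chr5:17574566-17574815 (plus). CANNTG occurred in 4 of the 8 promoters found, once each before Tac2, Neurod1 and Tbr1, at 2 positions before Sema3c, and at none before Eomes, Neurog2 and the 2 starts of Neurod4. It occurs in 66.2% of 32536 promoters of this length, CAGATG on either strand in 14.4% and CAGCTG in 13.1%, so these matches are a description of the letters and no sign of binding.

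Against early neuroblasts, non-cycling IPCs held more RNA of Ccnd2, Vim, Hmgb2 and most tested radial glia genes and less of Calb2, Camk2b and most tested neurite genes. Every neuroblast was chosen to hold Neurod1 and Dcx, which 84.9 and 74.5% of members held, and to lack Eomes and Neurog2. The directions of the neurite, neurogenic and radial glia lists were thus in part set by this choice and are a description. Of 4431 genes tested, 550 were higher in members (12.4%) and 655 lower (14.8%). With total UMIs in place of TMM, edgeR's trimmed mean of M values, as the scaling, 54.2% of the calls were higher in members, against 45.6%. Vim, the intermediate filament of radial glia, stood at 75.4 to 252 CPM in members with a median of 171, and at 29.7 to 48.9 CPM in neuroblasts with a median of 34.8. No experiment overlapped (log2 fold change 2.28 ± 0.12, edgeR adjusted p = 6.07e-21). Ccnd2 was also separate, with 89.8 to 229 CPM in neuroblasts against 270 to 861 CPM in members. Its level thus fell from cycling to non-cycling IPCs and again to neuroblasts within each of the 7 experiments. The first of these falls goes with the split of the IPCs on cell-cycle genes. Hmgb2 (1.64) and Hmgn2 (1.56), chromatin proteins abundant in dividing cells, Fabp7 (1.57), a fatty acid binding protein of radial glia, Mt2 (1.99) and Thrsp (1.45), which promotes lipogenesis, were higher in members in 7 of 7 experiments. Tox3, Trp53i11 and Efhd2 were the others of the 10 genes with the largest positive fold change.

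The 10 genes with the largest falls from neuroblasts to members included Camk2b, a synaptic kinase (log2 fold change -1.60), Kcnk1, a potassium channel (-1.42), Rbfox1, a splicing factor of neurons (-1.39), Sncb (-1.34), Sema5a (-1.58) and Dab1, the adaptor of reelin signalling (-1.41). Kitl, Elmod1, Adamts18 and Prr7 were the others. Kcnk1 stood at 63.0 to 130.2 CPM in members and at 132 to 321 CPM in neuroblasts, a near contact without overlap. Among the 30 neurite genes tested, 18 were lower in members, 4 were higher and 8 did not pass, with a median of -0.23. Calb2 was at 619 ± 241 CPM in members and 1337 ± 431 CPM in neuroblasts (log2 fold change -1.15 ± 0.05, edgeR adjusted p = 2.67e-23). Tuba1a and Tubb3 did not pass in this comparison, and Elavl4 was higher in members by 1.15. Of 26 tested neurogenic factors 10 were higher and 9 lower. Pax6 (1.17), Insm1 (0.65), Lhx2 (0.62), Hes6 (0.33) and Tbr1 (0.28) were among the higher ones, and Nhlh2 (-1.00), Neurod2 (-0.93), Bhlhe22 (-0.83) and Prox1 (-0.59) among the lower ones. Sox11 stood at 2867 ± 526 CPM in members and 2664 ± 736 CPM in neuroblasts and did not pass (edgeR adjusted p = 0.0624).

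Radial glia genes were at intermediate levels. Of 15 tested, 10 were higher in members than in neuroblasts and none lower, with a median of 0.52, and the list summed to 4820 ± 1315 CPM in members, 3044 ± 660.4 CPM in neuroblasts and 6964 ± 617 CPM in cycling IPCs. Sox2, the stem cell factor, was higher by 1.09 on the log2 scale and Mt1 by 1.03. Of 18 further cell-cycle genes tested 12 were higher in members, where the same limit of 2 cell-cycle genes held in both classes. The Notch ligand Dll3 was higher by 0.69, and 2 other tested Notch genes did not pass. Calls depended on the tool here, with 594 genes in DESeq2 against 1205, and on the limit, with 451 genes where members held none of the cell-cycle genes.

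**Figure D3:**
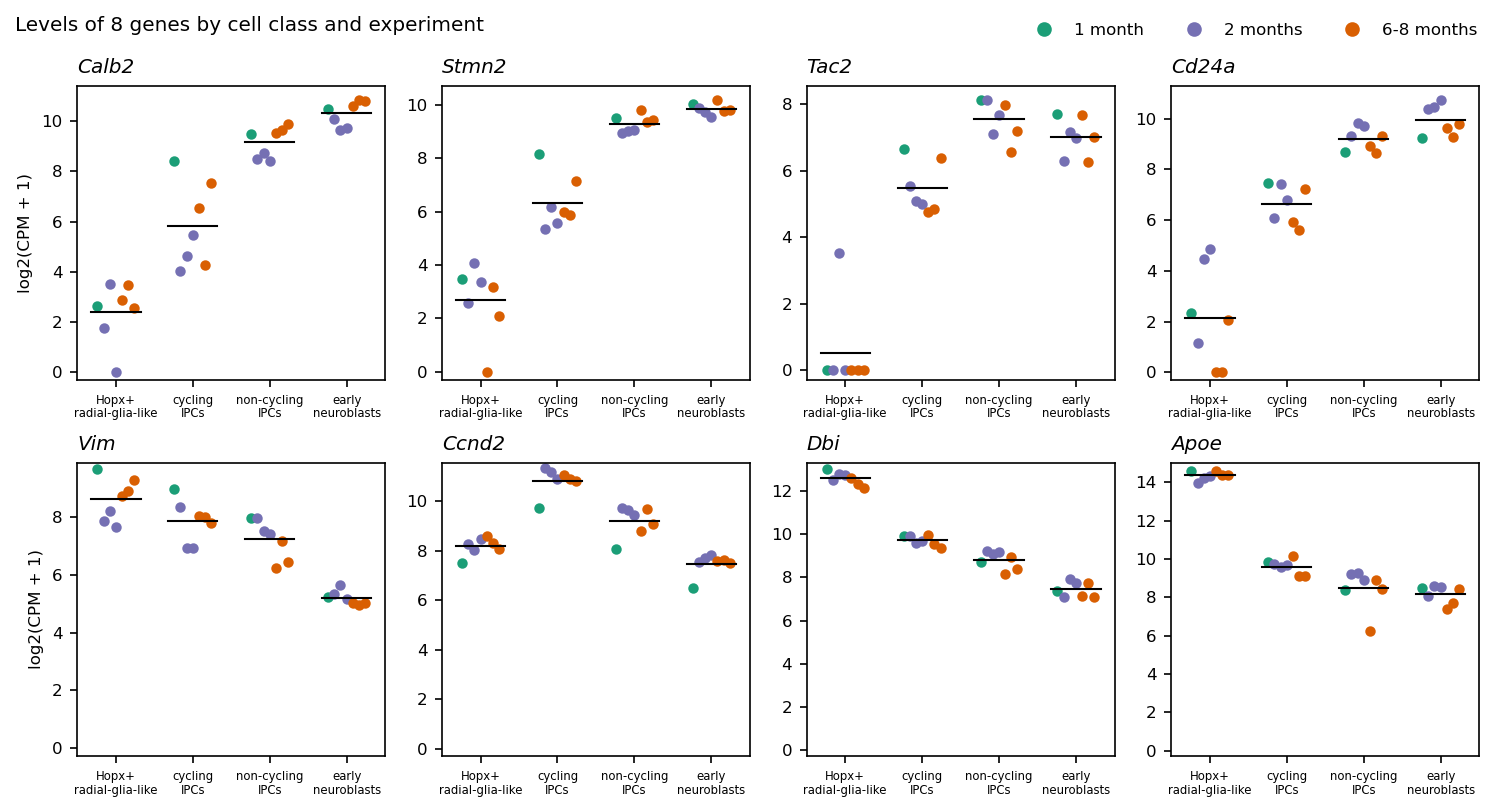
Levels of 8 genes as log2(CPM + 1) in 4 cell classes, 1 point per experiment coloured by age, with the mean as a line. Calb2, Stmn2 and Cd24a climb from Hopx+ cells to early neuroblasts, Vim, Dbi and Apoe decline, Ccnd2 peaks in cycling IPCs, and Tac2 is highest on average in non-cycling IPCs (199 CPM, with 137 CPM in neuroblasts).

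Tac2, which encodes neurokinin B, had its highest mean in the members. It stood at 281 CPM at 1 month, at 280.0, 138 and 202 CPM in the experiments at 2 months and at 249, 94.5 and 147 CPM at 6–8 months. In neuroblasts of the same experiments it stood at 207, 78.1, 142, 125, 206, 75.6 and 129 CPM. Members were higher in 6 of 7 experiments, with wide overlap between the classes (log2 fold change 0.48 ± 0.10, edgeR adjusted p = 0.000168). Cycling IPCs held 25.8 to 100.2 CPM of Tac2, and Hopx+ cells had it at 0 in 6 of 7 experiments. It was chosen for this description after its values were seen.

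Against Hopx+ radial-glia-like cells, members held less RNA of most tested glycolysis genes. The directions of the neurite, neurogenic and radial glia lists were largely set by how the Hopx+ class was chosen. Of 11 glycolysis genes tested 9 were lower. Of 28 lipid genes tested 17 were lower and 3 higher, whereas 20 of that list were tested against neuroblasts. Some of the 28 thus passed the detection limit through Hopx+ cells alone, so the direction of the lipid list is a description. Of 4772 genes tested, 1753 were higher (36.7%) and 1624 lower (34%). Scaling by total UMIs in place of TMM moved the median log2 fold change of all genes from 0.06 to 0.33 and made 66.2% of the calls higher in members, against 51.9%, so changes here are relative to the scaling. Tubb3, the neuronal beta-tubulin, averaged 1617 ± 158 CPM in members and 12.1 ± 12.6 CPM in Hopx+ cells, Cd24a 620.1 ± 202 and 8.2 ± 11.4 CPM, and Neurod1 901 ± 117 and 6.9 ± 13.6 CPM. Tac2, Scrt2, Srrm4, Sema3c, Calb2, Nhlh1 and Shb were also among the 10 genes that rose most. In the other direction stood Apoe (419 ± 188 against 21356 ± 3010 CPM), the glial glycolytic enzyme Aldoc (47.3 ± 28.4 against 4016 ± 259 CPM), and Clu (33.0 ± 25.6 against 2652 ± 328 CPM), a chaperone secreted by glia. Aldoc and Clu were among the 10 genes that fell most, with Entpd2, Pawr, Mlc1, Slc14a1, Sdc4, Tnc, Paqr6 and Eva1a. The 24 radial glia genes tested had a median log2 fold change of -4.88, all lower in members. The Hopx+ class was selected on such genes and many passed the detection limit through it alone, so this direction is a description. Of 27 neurogenic factors tested 23 were higher, which is likewise a description, since the Hopx+ class was selected for lacking Eomes, Neurog2, Neurod4 and Dcx and genes such as Neurod1 (84.9% of members and 1.74% of Hopx+ cells) were tested through the members alone. The same holds for the neurite list, of which 26 of 29 tested genes were higher. Pax6 was lower in members (log2 fold change -0.98).

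Members with Neurog2 but not Eomes were compared with members with Eomes but not Neurog2, to see how the IPCs varied among themselves. At least 10 cells of each kind were present in 4 experiments (83 and 659 cells). Of 4013 genes tested with edgeR, 0 were higher in Neurog2+Eomes- members (0%) and 2 lower (0.0498%), while 289 had an unadjusted p under 0.05 and DESeq2 called 1. The 2 were Tac2, at 107, 16.5, 67.0 and 13.5 CPM in Neurog2+Eomes- members against 311, 321, 168 and 257 CPM (edgeR adjusted p = 0.0268), and Nnat, at 2268 ± 543 against 3782 ± 360.1 CPM (edgeR adjusted p = 0.0268). Both were lower in 4 of 4 experiments without overlap. Apoe did not pass although it averaged 1596 ± 1449 against 306 ± 75.7 CPM, and its values in Neurog2+Eomes- members ran from 71.2 CPM at 1 month to 3489 CPM in the first experiment at 2 months. No gene of the 17 tested radial glia genes passed, with a median log2 fold change of 1.09. The calls changed with single experiments, with 33 genes called without the 1-month experiment and 0 without the first or without the second at 2 months. With the rules applied again to thinned cells 134 genes were called.

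The rule did not use the reporter elements, although the rule and the call of recombination both read UMIs and so depend on depth. A cell was called recombined if it held under 4 UMIs of the intact tdTomato locus and over 1 UMI of the recombined one, with both limits doubled for Version 3. Recombination marks cells that divided during treatment and their descendants. In members the share was 41.4% at 1 month, 15.6, 28.9 and 47.4% at 2 months and 47.4, 44.2 and 49.3% at 6–8 months. Cycling IPCs of the same experiments had 25.6, 15.3, 30.5, 54.6, 34.3, 16.9 and 20%. Members averaged 39.2 ± 12.4% and cycling IPCs 28.2 ± 13.6%, a difference of 11 ± 14.3 percentage points (higher in 5 of 7 experiments, two-sided exact sign-flip p = 0.109, adjusted over 2 comparisons p = 0.219). The smallest p that this design allows is 0.0156. Early neuroblasts averaged 38.0 ± 9.26%, and the difference from members was 1.23 ± 7.74 points (exact sign-flip p = 0.672, also adjusted, higher in 4 of 7).

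By age, the difference from cycling IPCs was 13.1, 27.3 and 29.3 points at 6–8 months and 0.341, -1.59 and -7.23 points at 2 months, without overlap (exact permutation p = 0.1, the smallest that 3 against 3 experiments allow). It was 15.8 points at 1 month. Chemistry and the limits of the call differed with 2 months and cannot be told apart from age there. With any UMI of the recombined locus taken as a call, the difference over all ages was -0.594 points, and in cells thinned to 2000 UMIs it was 4.36 points. In the experiment that was sorted into separate libraries, 35 of 57 members of the tdTomato+ library were called recombined (61.4%, 95% exact binomial interval 47.6 to 74.0%) and 0 of 167 of the tdTomato– library, which allows up to 2.18%. In the same tdTomato+ library 35 of 70 cycling IPCs (50%, 37.8 to 62.2%) and 31 of 46 early neuroblasts (67.4%, 52.0 to 80.5%) were called. The intervals overlap. Since the label of this library also names cells without either colour, these shares are not the sensitivity of the call, and whether that sensitivity differed between the classes was not tested.

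**Figure D4:**
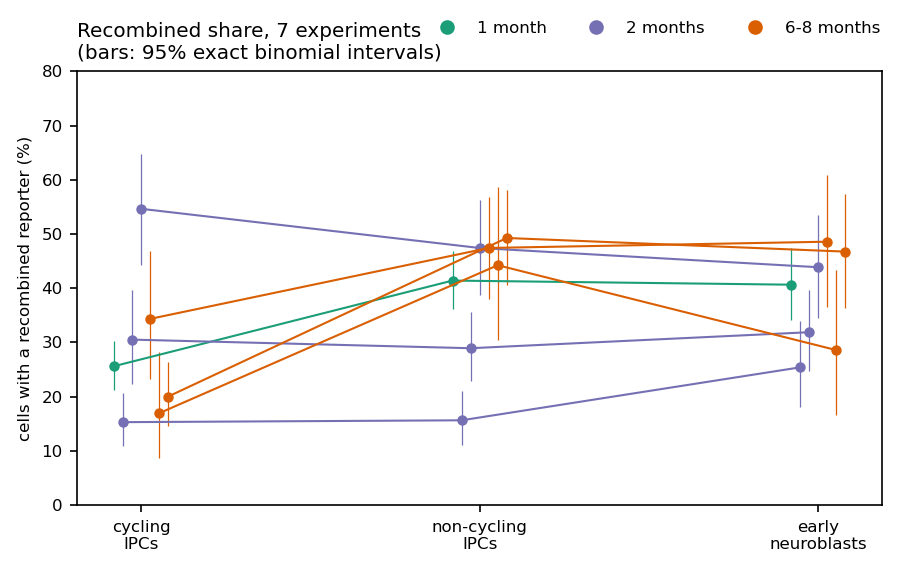
Share of cells with a recombined reporter (vertical axis, percent) in cycling IPCs, non-cycling IPCs and early neuroblasts, with a line for each of 7 experiments coloured by age and 95% exact binomial intervals. The 1-month experiment and those at 6–8 months rise from cycling to non-cycling IPCs, and those at 2 months do not rise by more than 0.341 points.

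RNA of eGFP, driven by the Nestin promoter, stood in the same order of classes in each of the 7 experiments. It averaged 1453 ± 616 CPM in Hopx+ cells, 436 ± 153 CPM in cycling IPCs, 230 ± 114 CPM in members and 112 ± 61.7 CPM in early neuroblasts, in cells that had been sorted for GFP. The intact tdTomato locus was at 881 ± 295 CPM in members against 2653 ± 956 CPM in Hopx+ cells, and the element WPRE of the recombined transcript at 412 ± 168 against 95.1 ± 35.0 CPM.

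The share of IPCs outside the cycle was compared between ages after thinning to 2000 UMIs, since detection of cell-cycle genes depends on depth. It was 75.5% at 1 month, 68.3, 69.7 and 70.2% at 2 months and 77.9, 77.2 and 62.5% at 6–8 months. The mean was 69.4 ± 0.973% at 2 months and 72.5 ± 8.69% at 6–8 months, a difference of 3.12 points within the spread of the older experiments (two-sided exact permutation p = 0.5, smallest possible 0.1). Without thinning the means were 57.0 ± 7.03% and 49.7 ± 11.9%, and the difference was -7.27 points. Thinned to 3000 UMIs it was 10.4 points (exact permutation p = 0.2). With absence of Mki67 in place of the limit of 2 cell-cycle genes, the share was 94.0, 96.6 and 95.8% at 2 months and 89.5, 77.2 and 90.3% at 6–8 months. These did not overlap, and the difference was reversed, at -9.82 points (exact permutation p = 0.1, the smallest possible).

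Age was compared across genes between 6–8 months and 1 month, which share a chemistry, with the 2-month experiments adding to the estimate of spread. The single 1-month experiment was assumed to vary like the others. Of 5768 genes tested with edgeR, 3 were higher at 6–8 months (0.052%) and 1 lower (0.0173%), 259 had an unadjusted p under 0.05 and DESeq2 called 4. Mndal, an interferon-inducible gene of the p200 family at chr1:173849126-173942491, stood at 1.57 CPM at 1 month and at 20.3, 48.3 and 47.0 CPM at 6–8 months (log2 fold change 4.49 ± 0.64, edgeR adjusted p = 0.00852). At 2 months it stood at 12.1, 26.5 and 32.9 CPM, so all 6 other experiments lay above the 1-month one. Gm8797, at chr3:5750806-5751295, stood at 18.5 CPM at 1 month and at 70.9, 77.7 and 129.7 CPM at 6–8 months (2.35 ± 0.37, edgeR adjusted p = 0.013), and AC149090.1, on a scaffold outside the chromosomes, at 53.3 against 256, 149 and 192 CPM (1.91 ± 0.31, edgeR adjusted p = 0.013). Lhx9, a LIM-homeobox transcription factor at chr1:138825186-138848577, was the gene that fell, from 47.4 CPM to 7.88, 12.6 and 17.1 CPM (-1.86 ± 0.33, edgeR adjusted p = 0.0323). Reads of Mndal, Gm8797 and AC149090.1 may be shared with closely related copies, so these levels are uncertain, and Mndal and Lhx9 lie below 50 CPM and were named after their values were seen. With total UMIs as the scaling 3 genes were called, all higher, and Lhx9 did not pass. Without the third experiment at 6–8 months 0 genes were called, and 12 were called without the first at 2 months.

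**Figure D5:**
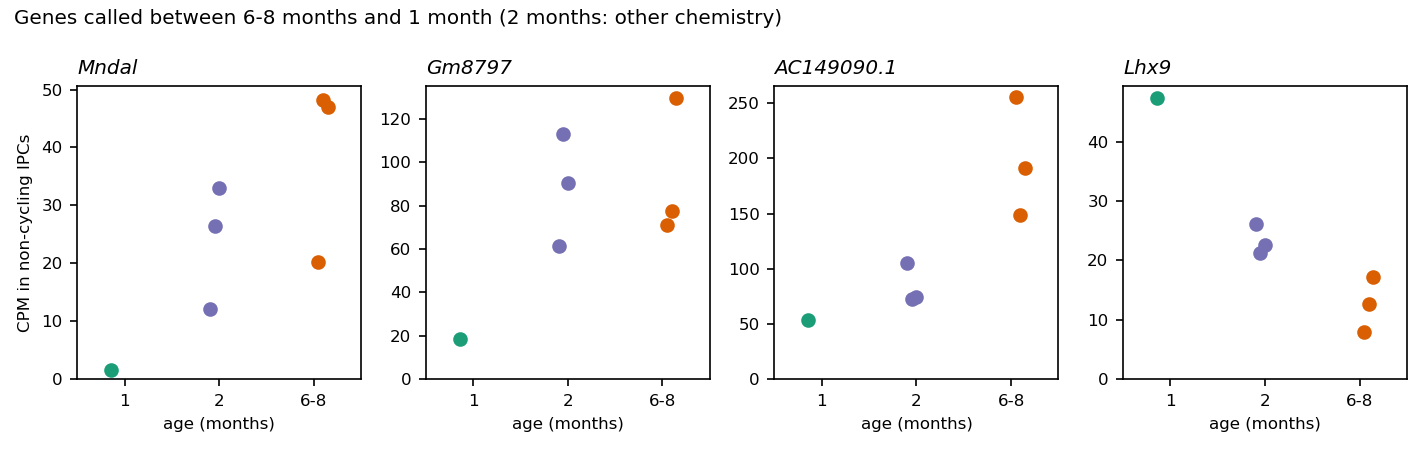
Levels of the 4 genes called between 6–8 months and 1 month in non-cycling IPCs (vertical axes, CPM), 1 point per experiment by age. Mndal, Gm8797 and AC149090.1 are lowest at 1 month and Lhx9 is highest there, with 1 experiment at that age.

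In the neurogenic, Notch, radial glia, neurite, cell-cycle exit, guidance, lipid and glycolysis lists, 0 genes passed the edgeR test between 6–8 months and 1 month. Ccnd2 stood at 270 CPM at 1 month and at 451, 825 and 538 CPM at 6–8 months, and did not pass (log2 fold change 1.14 ± 0.28, edgeR adjusted p = 0.348). The median log2 fold change was 0.22 over the neurogenic list and 0.04 over the neurite list, against 0.01 over all genes tested.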

How the data were processed

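Cells from 7 experiments (8 libraries) were sequenced by droplet 3′ RNA-seq. The authors mapped reads with Cell Ranger 3.0.2 to a custom mm10 genome that holds the reporter elements and deposited raw UMI counts per gene and barcode, merged without depth normalization. The submitters' processing notes also name Seurat and cutadapt 1.18. Library totals ran from 4861883 to 43826338 UMIs. No doublet caller was run on the counts here. Members and gene lists were chosen with earlier results of these data known. Counts were summed per experiment and class, and both libraries of the first 2-month experiment were summed. Genes detected in 20% or more of the cells of a compared class were tested with edgeR 4.0.16 (R 4.3.3; quasi-likelihood, TMM, experiment as block except for age, Benjamini-Hochberg, threshold 0.05). Rule genes and reporter elements were left out of the tests. CPM are UMIs per 1000000 of the class sum. Named genes were the 10 with the largest changes in each direction among those called, moving one way in every experiment and reaching 50 CPM (cell-cycle list left out against cycling IPCs), and the 4 most abundant of each list. Other list genes were named after their values were seen. Scripts were tested on simulated data. Alternatives were DESeq2 1.42.0, other scalings and filters, thinning, other limits of the rule, no block and leaving out each experiment. Some genes are not reported here.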

Additional observations from a re-analysis of the deposited data

Results flagged for a closer look

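Over 30 values tested across the 7 experiments (list sums, shares and reporter elements), chance alone would set about 1 in 20 apart, and 3 stood apart in 1 experiment. The genes of other lineages in the rule summed to 171 CPM in members of the second experiment at 2 months and to 14.6 to 51.5 CPM in the others. Oligodendrocyte markers summed to 1601 CPM in the same experiment and to 105 to 500.4 CPM in the others. Mog, Mag and Mobp belong to both of these lists, so the 2 flags are not separate. Microglia markers summed to 161 CPM in the first experiment at 2 months and to 3.38 to 20.6 CPM in the others.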

How the results depend on the processing

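Against cycling IPCs, 751 genes were called with the rules applied again to cells thinned to 2000 UMIs, where fewer genes were tested, and 1803 without the replicate block, against 3274. Against early neuroblasts, 594 were called by DESeq2, 451 with members that held no cell-cycle gene, 580 after thinning and 171 without the replicate block, against 1205. Against Hopx+ cells, 6288 and 6269 were called with the 5% and filterByExpr filters, which test more genes, and 1434 after thinning, against 3377. Between Neurog2+Eomes- and Eomes+Neurog2- members, 1 was called by DESeq2, 52 with the 5% filter, 6 with no other-lineage gene, 134 after thinning and 0 without the replicate block, against 2. Between 6–8 months and 1 month, 1 was called with no cell-cycle gene and 7 with no other-lineage gene, against 4. Leaving out 1 experiment in turn gave 2691 to 3279, 832 to 1205, 2835 to 3560, 0 to 33 and 0 to 12 calls in these comparisons. The recombined share of members minus that of cycling IPCs was -0.594 points with any recombined UMI taken as a call, and ran from 7.95 to 14.0 without each experiment. Minus that of neuroblasts it was -0.524 with any UMI and -3.28 with the same limits for both chemistries, and ran from -1.18 to 3.06. The share outside the cycle, 6–8 minus 2 months, was -7.27 points without thinning, -9.82 by Mki67, and ran from 0.435 to 8.13. Single genes turned direction after thinning (Mt1 0.083 and Tpi1 0.19 against cycling IPCs, Sox4 -0.0046 and Nnat -0.27 against neuroblasts), with at least 3 IPC genes (Apoe -0.22 against neuroblasts) or with no cell-cycle gene (Gadd45g -0.17 against Hopx+ cells). Beyond the number of genes tested, the cause was not tested. The split could not be fitted with at least 3 IPC genes, with no cell-cycle gene or with Version 3 alone, nor age without the 1-month experiment. No paired analysis was possible between ages because the replicate numbers mark separate experiments. The rule reads detection, which depends on depth, and 1 experiment at 1 month limits what can be said of age.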

Other observations

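Most tested glycolytic genes were lower in non-cycling than in cycling IPCs. Of 11 tested, 7 were lower and 2 higher by edgeR's quasi-likelihood test, with a median log2 fold change of -0.42 against 0.01 over all genes tested, of which 27.6% were lower and 27.3% higher. Gapdh fell from 1313 ± 119 to 735 ± 80.2 CPM (SD, n = 7 experiments) and Ldha, which makes lactate, from 129 ± 22.8 to 77.1 ± 12.2 CPM, each in 7 of 7 experiments. Cycling IPCs were deeper. With the rules applied again to cells thinned to 2000 UMIs, the glycolytic gene Tpi1 turned to a log2 fold change of 0.19 (edgeR adjusted p = 0.282). It was the only named glycolytic gene to turn direction. Hk1, the hexokinase of neurons, rose from 28.7 ± 4.02 to 48.4 ± 11.4 CPM and Ldhb, the other lactate dehydrogenase subunit, from 229 ± 47.0 to 305 ± 38.6 CPM. Against early neuroblasts 3 were higher in members (Gapdh, Pkm and Pgk1) and 8 did not pass.

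Of 25 lipid genes tested against cycling IPCs, 5 were higher and 6 lower, near or below the shares over all genes tested (27.3% higher and 27.6% lower), so the counts are no result about the list. Of 20 tested against neuroblasts, 10 were higher in members and 4 lower, beside 12.4% and 14.8% over all genes. Dbi, an acyl-CoA binding protein, averaged 6299 ± 1266 CPM in Hopx+ cells, 850 ± 134 CPM in cycling IPCs, 464 ± 122 CPM in members and 179 ± 46.3 CPM in neuroblasts. Hmgcs1, an enzyme of sterol synthesis, was higher in members than in both IPC neighbours, at 169 ± 54.2 CPM against 126 ± 45.0 CPM in cycling IPCs (6 of 7 experiments) and 98.3 ± 36.1 CPM in neuroblasts (7 of 7). Elovl6, which lengthens fatty acids, rose from cycling IPCs (26.5 ± 6.09 CPM) to members (41.6 ± 13.2 CPM), and neuroblasts held 61.4 ± 6.97 CPM.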
